A study of Mus musculus with 18 samples.

Results

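Interferon-stimulated genes are transcribed when a cell senses interferon, and 9 of them were followed here through sorted cells of the mouse retina: Ifit1, Ifit2, Ifit3, Isg15, Irf7, Oasl2, Ifitm3, Usp18 and Bst2. They were chosen by name from the 55487 genes of the count table, and all 9 were present. Viable (DAPI-negative) retinal cells had been sorted by the myeloid surface protein CD11b into a CD11b-positive fraction, called microglia here, and a CD11b-negative fraction of the remaining retinal cells, called retina here. Controls were Bmal1f/f mice, in which the circadian clock gene Bmal1 is floxed, and knockouts were Bmal1-mg/-mg mice, which are described as lacking Bmal1 in microglia. The 4 groups were control microglia (4 libraries), knockout microglia (5), control retina (4) and knockout retina (5), with both fractions isolated at the same time. The recombinase and its driver, age, sex, hour of collection and any treatment are not given in the sources used here, nor is it said whether libraries of a group came from different mice, and p-values reflect library-to-library spread, which may be technical.

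Type I interferons bind the receptor IFNAR1/IFNAR2, the receptor-bound kinases JAK1 and TYK2 become active, and a signal passes to a transcription factor complex with IRF9 that binds interferon-stimulated response elements in target promoters. Among the targets, IFIT1, IFIT2 and IFIT3 bind foreign RNA or one another and restrict translation of viral RNA, OASL2 is an oligoadenylate synthetase-like antiviral protein, IFITM3 blocks virus entry at endosomal membranes and BST2 (tetherin) holds budding virus at the cell surface. ISG15 is a ubiquitin-like modifier, USP18 removes it from proteins and also damps signalling at IFNAR2, and IRF7 is a transcription factor that amplifies interferon production. Microglia are the resident macrophages of the retina, and an interferon-responsive state marked by these genes is well known in microglia of the brain.

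The genes lie on GRCm38 as follows. Ifit2 (chromosome 19, 34550694 to 34576419), Ifit3 (34583531 to 34588731) and Ifit1 (34640871 to 34650009) are neighbours on the plus strand. Isg15 spans chromosome 4, 156199424 to 156200818, and Bst2 spans chromosome 8, 71534255 to 71537456, both on the minus strand. Ifitm3 (141009586 to 141010770) and Irf7 (141262706 to 141266481) are on the minus strand of chromosome 7. Oasl2 lies on chromosome 5, 114896936 to 114912234, and Usp18 on chromosome 6, 121245906 to 121270917, both on the plus strand.

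Promoter windows of 300 bases (250 before to 50 after the start) were taken from RefSeq on GRCm38.p6 for 8 of the 9 genes, with 2 starts for Ifit2. The core of the response element was searched as GAAANNGAAA, or TTTCNNTTTC on the other strand, with overlapping matches allowed. A match wholly before the start was found in 4 of the 8 genes, against 2.98% of 32851 promoters in the table. The 4 stretches are shown because they hold these matches, with 25 bases on each side and the matches in capitals, 5′ to 3′ on the gene's strand. They are chr4:156200850-156200921 (minus) for Isg15, chr8:71537562-71537627 (minus) for Bst2, chr19:34583348-34583441 (plus) for Ifit3 and chr19:34640760-34640838 (plus) for Ifit1.
Isg15: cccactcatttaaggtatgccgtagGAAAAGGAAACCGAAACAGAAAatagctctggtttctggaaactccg
Bst2: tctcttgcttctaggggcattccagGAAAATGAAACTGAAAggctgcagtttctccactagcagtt
Ifit3: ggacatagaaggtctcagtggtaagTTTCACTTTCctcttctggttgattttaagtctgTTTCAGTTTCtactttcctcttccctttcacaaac
Ifit1: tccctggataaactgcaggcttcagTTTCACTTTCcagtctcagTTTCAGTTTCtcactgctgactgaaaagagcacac
Isg15 carries 3 overlapping matches and Bst2 carries 2 overlapping matches, while Ifit3 and Ifit1 each carry 2 separate matches on the other strand. Ifitm3 matched only after its start, and Oasl2, Irf7 and both Ifit2 windows had no match of these letters. A match describes the sequence and does not show that a factor was bound.

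Libraries held 32277156 to 47563119 counts in total. In them 3 counts, the limit a count of 0 allows, stood for 0.0631 to 0.0929 CPM (counts scaled to library size, with TMM factors over all 18 libraries). Amplified cDNA counts are not independent molecules, so such limits cover counting error only. The 17 homeostatic microglia markers summed to between 58692 and 68753 CPM in microglia and between 115 and 373 CPM in retina, and 12 rod markers to between 5375 and 12513 CPM in microglia and between 120964 and 221152 CPM in retina. The targeted gene, listed as Arntl, had 18.5 ± 7.43 CPM in control and 13.6 ± 8.76 CPM in knockout microglia (mean ± SD, n = 4 and 5), which overlapped. Counts per gene do not show whether its floxed part was read. Other genes did separate these libraries. Esr1 had 9.83 to 17.5 CPM in control and 413 to 679 CPM in knockout microglia, and Cx3cr1 had 5988 to 6516 and 2811 to 3311 CPM. Replicate 1 of each group had 0 reads of 4 Y-linked genes, while the other 14 libraries had 1551 to 4188. Of these 4, control retina replicate 1 had 4 reads of Xist and the others 490 to 1751, and each result was also computed from the other 14 libraries.

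All 9 genes had reads in every microglia library. Per kb of exon, the order in control microglia was Ifitm3 at 215.7 CPM per kb, Bst2 at 143.9, Ifit3 at 72.5, Isg15 at 31.3, Usp18 at 20.8, Irf7 at 20.7, Ifit2 at 14.9, Oasl2 at 13.2 and Ifit1 at 10.4. Only between Bst2 and Ifit3 did the libraries of neighbours in this order not overlap. The membrane proteins Ifitm3 and Bst2 thus headed the list and the RNA-binding Ifit1 closed it. Exon length here is that of all annotated exons of a gene merged, and the order between them depends on the length used. It was 6374 bases for Oasl2 and 2790 bases for Usp18, whose longest transcripts have 3123 and 1771 bases. Reads of Ifit3 cannot be assigned with certainty, since 31.7% of the 100-base windows of its longest transcript also occur in its copy Ifit3b, and 3.29% of those of Ifit1 occur in Ifit1bl2. The other 7 genes shared no such window with another gene.

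Control microglia held more transcript than control retina for 7 of the 9 genes by edgeR's quasi-likelihood test with Benjamini-Hochberg adjustment (adjusted p under 0.05), where 22.8% of the 15188 genes tested were higher in microglia. Bst2, Usp18, Ifitm3, Isg15, Ifit3, Ifit2 and Irf7 were called, and Ifit1 and Oasl2 were not. The median log2 difference, microglia minus retina, was 4.45 over the 9 genes and 0.02 over all genes tested. In knockouts 8 of the 9 genes were called higher in microglia, against 23.7% of 15211 genes, with a median of 3.68 beside -0.10 for all genes. Fewer cells that hold a transcript and less transcript per cell cannot be told apart in such bulk fractions.

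Bst2, the tetherin gene, had 172, 110, 124 and 113 CPM in control microglia replicates 1 to 4 and 1.46, 1.46, 3.80 and 0 CPM in control retina. Every microglia library was far above every retina library. The log2 difference was 6.23 (SE 1.20, adjusted p = 0.0039), and in knockouts 6.34 (SE 0.51, adjusted p = 4.28e-06). The other membrane protein gene, Ifitm3, had 104 to 237 CPM in control microglia and 0.026 to 5.23 CPM in control retina, with log2 differences of 5.57 (SE 1.10, adjusted p = 0.00442) in controls and 4.47 (SE 0.40, adjusted p = 9.62e-06) in knockouts.

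Isg15, the modifier itself, had 0, 1.09, 1.09 and 1.10 CPM in control retina and 2.08, 0.861, 1.78, 2.31 and 2.27 CPM in knockout retina. In microglia it was at 13.2 to 39.7 CPM in controls and 19.3 to 32.5 CPM in knockouts, so the fractions did not overlap. The log2 difference was 4.80 (SE 1.25, adjusted p = 0.016) in controls and 3.68 (SE 0.38, adjusted p = 2.56e-05) in knockouts. For Usp18, the enzyme that removes ISG15, control retina held 3.87 CPM in replicate 1 and 0 in the other 3 libraries. Its log2 difference in controls, 5.84 (SE 1.97, adjusted p = 0.0461), did not pass when any control library other than retina replicate 1 was left out (log2 difference 5.43 to 6.01, adjusted p up to 0.098). Without retina replicate 1, the only control retina library with reads of Usp18, the fitted value was 14.15 (adjusted p = 0.000196), which is no bound, and the size of 5.84 thus rested on that library. In knockouts it was 4.04 (SE 1.05, adjusted p = 0.00974).

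Ifit3 had log2 differences of 3.98 (SE 0.46, adjusted p = 0.000286) in controls and 3.45 (SE 0.23, adjusted p = 1.2e-06) in knockouts. Ifit2 had 2.94 (SE 0.34, adjusted p = 0.000271) and 4.67 (SE 0.59, adjusted p = 9.66e-05). Ifit1 did not pass in either genotype, at 4.45 (SE 1.85, adjusted p = 0.0919) in controls and 2.42 (SE 1.09, adjusted p = 0.095) in knockouts. Its control retina libraries held 0.211, 0, 4.64 and 0 CPM and its knockout retina libraries 4.64, 10.1, 0, 4.34 and 2.09 CPM. They thus ran from no read to more than 4 CPM within 1 group, while each of the 9 microglia libraries was at 13.1 CPM or above. Oasl2 was as uneven in control retina, with 5.86, 4.45, 0 and 30.8 CPM, and its difference of 2.996 (SE 1.36, adjusted p = 0.118) was not called. Left out singly, control retina replicate 3 let Ifit1 (then at 8.45) and Oasl2 pass and replicate 4 let Oasl2 pass. In knockouts Oasl2 differed by 2.52 (SE 0.35, adjusted p = 0.000204).

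Irf7 had the smallest difference of the 9. Control retina held 54.9, 35.0, 41.4 and 27.2 CPM and knockout retina 34.6, 26.9, 25.3, 36.7 and 49.4 CPM, beside 117, 62.4, 67.9 and 64.6 CPM in control microglia and 97.6, 71.0, 43.4, 122 and 48.6 CPM in knockout microglia. The control fractions did not overlap and the knockout fractions did. Log2 differences were 0.93 (SE 0.30, adjusted p = 0.0367) and 1.07 (SE 0.32, adjusted p = 0.0202). The control call was lost without control microglia replicate 1 or 3 or control retina replicate 2, 3 or 4 (adjusted p up to 0.0826), and the knockout call was lost from the 14 libraries with Y-linked reads (adjusted p = 0.0742). Exons of Irf7 overlap those of Phrf1 on the opposite strand by 45 bases, and Phrf1 had 118 ± 46.6 CPM in control retina (n = 4). Whether counting used strand is not given in the sources used here, and the part of such reads in the retina level of Irf7 was not tested.

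Over the 9 genes, control and knockout fractions did not overlap for 9 and 8 genes, where 28.8% and 22.9% of all genes tested lay wholly higher in microglia. The mean level in retina was 1.29% of that in microglia for Bst2 and 50.8% for Irf7 in controls, with the other 7 genes between 1.67% (Usp18) and 12.7% (Ifit2). In knockouts it ran from 1.16% (Bst2) to 45.2% (Irf7). The same share for the summed homeostatic markers was 0.257% in controls and 0.450% in knockouts, most of it from Sparc at 151 and 258 CPM in retina. Csf1r, which defines myeloid cells, had a mean of 19807 CPM in control microglia and 0.0264 CPM in control retina, and Gpr34 and Fcrls were at 0 in both retina groups.

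**Figure D1:**
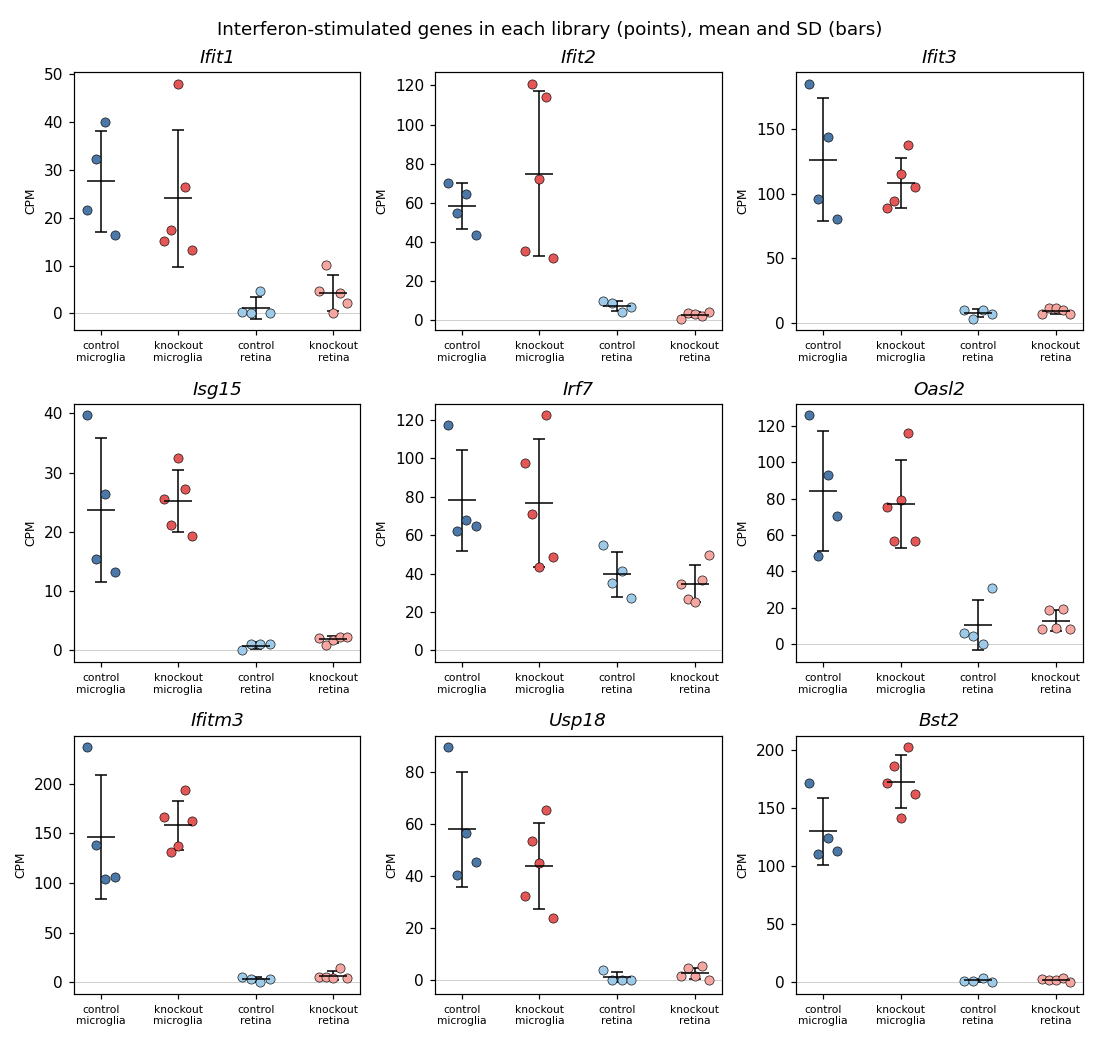
Level in CPM (vertical axis, linear, a separate scale for each gene) of the 9 interferon-stimulated genes in each of the 18 libraries, as points by group, with the mean and SD as bars. Microglia libraries lie above retina libraries for each gene except Irf7, whose knockout groups overlap, and control and knockout libraries of the same fraction overlap for all 9 genes.

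**Figure D2:**
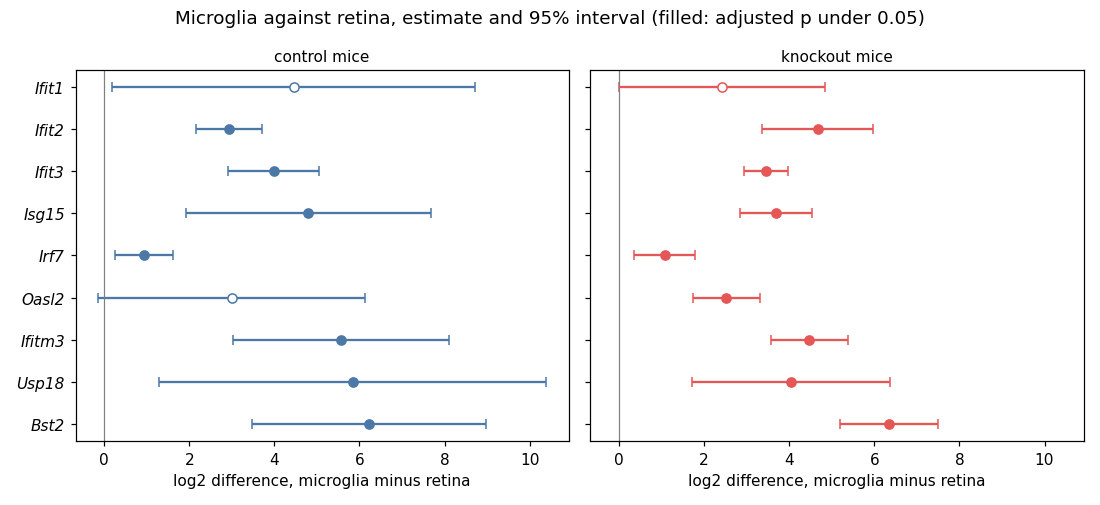
Log2 difference, microglia minus retina, with its 95% interval for each gene in control mice (left) and knockout mice (right), on a shared axis. Filled points passed at an adjusted p under 0.05, which were 7 genes in controls and 8 in knockouts, and Irf7 lies nearest to 0 in both.

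The central comparison was between microglia of mice labelled Bmal1-mg/-mg and control microglia. As given above, their Arntl levels overlapped, while their Esr1 and Cx3cr1 levels did not. None of the 9 genes was called, by edgeR, DESeq2 or limma voom, where edgeR called 0.115% of 14835 genes tested. At an unadjusted p under 0.05, 1 of the 9 passed, Bst2, against 5.76% of all genes. Changes were positive for 4 genes and negative for 5, with a median log2 change, knockout minus control, of -0.03 beside -0.01 for all genes. In none of the 9 did control and knockout libraries separate, which 3.3% of all genes did.

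Bst2 had 172, 110, 124 and 113 CPM in control microglia and 172, 186, 142, 202 and 162 CPM in knockout microglia. Knockout libraries were mostly higher, but control replicate 1 reached into their range. The means were 130 ± 28.6 and 173 ± 23.1 CPM, and the log2 change of 0.41 (SE 0.16, 95% interval 0.04 to 0.78, adjusted p = 0.777) did not pass. The interval corresponds to a 1.03-fold to 1.72-fold level in knockouts. For Ifitm3 the levels were 237, 138, 104 and 106 CPM in control libraries and 166, 131, 137, 193 and 162 CPM in knockout libraries. Control replicate 1 was the highest and control replicates 3 and 4 the lowest of the 9, so the groups overlapped fully, and the log2 change was 0.11 (SE 0.25, interval -0.45 to 0.68).

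In the ISG15 system the modifier and its protease also overlapped between genotypes. Isg15 had 39.7, 15.4, 26.4 and 13.2 CPM in control libraries and 25.5, 21.2, 32.5, 27.3 and 19.3 CPM in knockout libraries. The controls spanned the knockouts on both sides, and the log2 change was 0.09 (SE 0.35, interval -0.71 to 0.88). Usp18 had 89.6, 40.2, 56.7 and 45.2 CPM in control libraries and 32.2, 53.5, 44.9, 65.4 and 23.7 CPM in knockout libraries. The highest library was a control and the lowest a knockout, and the log2 change of -0.40 (SE 0.34, interval -1.16 to 0.36) was the most negative of the 9.

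Among the RNA-directed effectors, Ifit1 had 21.7, 32.3, 39.9 and 16.4 CPM in control libraries and 15.1, 17.3, 47.9, 26.4 and 13.1 CPM in knockout libraries, a log2 change of -0.20 (SE 0.44, interval -1.19 to 0.79). Ifit2 had 70.4, 54.9, 64.5 and 43.6 CPM in control libraries and 35.3, 121, 72.2, 114 and 31.8 CPM in knockout libraries. Knockout libraries of Ifit2 lay on both sides of all controls, with an SD of 42.0 CPM beside 11.7 CPM, and the log2 change was 0.36 (SE 0.42, interval -0.58 to 1.29). Ifit3 went the other way in spread, with 185, 96.1, 144 and 80.1 CPM in control libraries and 89.4, 94.6, 115, 138 and 105 CPM in knockout libraries, and a log2 change of -0.22 (SE 0.25, interval -0.78 to 0.34). Its copy Ifit3b was at 36.9 ± 19.5 CPM in control microglia and at 22.2 ± 11.3 CPM in knockout microglia. Oasl2 had 126, 48.3, 92.9 and 70.1 CPM in control libraries and 75.6, 56.7, 79.4, 116 and 56.7 CPM in knockout libraries. Controls of Oasl2 held both the highest and the lowest library, and the log2 change was -0.13 (SE 0.31, interval -0.83 to 0.56).

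Irf7, with the libraries given above, was at 78.1 ± 26.3 CPM in control and 76.6 ± 33.3 CPM in knockout microglia (n = 4 and 5), a log2 change of -0.03 (SE 0.34, interval -0.79 to 0.74). Except for Bst2, each of the 9 had an adjusted p of 0.999. Intervals of Ifit1, Ifit2 and Usp18 reach beyond a log2 change of 1 in a direction, so changes of that size lay within the intervals. In the authors' deposited table none of the 9 passed either, where 76 of its 12841 genes did. The lowest adjusted p there, by a likelihood ratio test, was that of Bst2, 0.947 at a log2 change of 0.39.

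**Figure D3:**
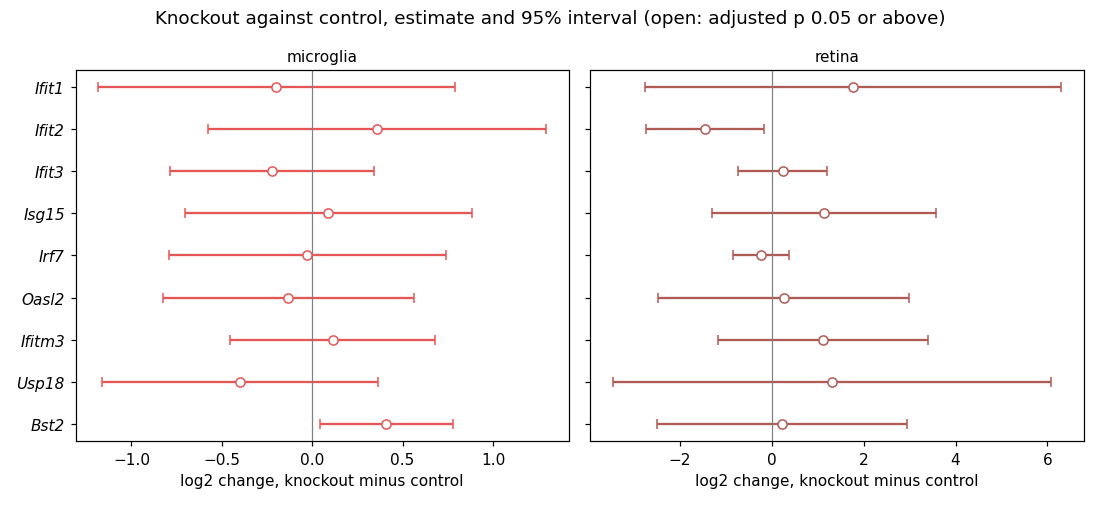
Log2 change, knockout minus control, with its 95% interval for each gene in microglia (left) and retina (right), with different axis scales. All points are open, since no gene passed at an adjusted p under 0.05, and the intervals that leave out 0 are those of Bst2 in microglia and Ifit2 in retina.

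Part of the spread between libraries of the same genotype was shared by the 9 genes. How many of all genes ranked these libraries alike was not counted. Control microglia replicate 1 was the highest of the 4 controls for 8 of the 9 genes, the exception being Ifit1. Knockout microglia replicate 4 was the highest of the 5 knockouts for 6 genes and the lowest for 0, and replicate 5 was the lowest for 5. The mean of the 9 genes' standardised log2 CPM was 1.15 in control replicate 1 and 0.997 in knockout replicate 4, against -0.83 to 0.146 in the other 7 libraries.

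Control replicate 1 also held the highest sums among controls of the 9 border macrophage markers, 1003 CPM against 307 to 615 CPM, and of the 10 Mueller glia markers, 7309 CPM against 2032 to 3597 CPM. Knockout replicate 4 held the lowest sums among knockouts of the same lists, 490.4 and 4169 CPM, against up to 1384 and 6424 CPM. In controls the Mueller glia sum had a median of 3159 CPM in microglia and 2670 CPM in retina. Yet 5 of its 10 markers were called lower and 1 higher in control microglia, so the sum does not measure Mueller glia in that fraction. The 10 monocyte and granulocyte markers summed to 43.3 CPM in control replicate 1 and 29.9 CPM in knockout replicate 4, within the range of 25.8 to 156 CPM of the microglia libraries. The part of these cell types in the shared pattern was not tested. Without control replicate 1, 0 of the 9 genes were called, the log2 change of Bst2 was 0.57 (adjusted p = 0.333), and those of Ifit3, Irf7 and Oasl2 turned positive at 0.02, 0.24 and 0.13. From the 14 libraries with Y-linked reads, 0 genes were called and Bst2 had 0.58 (adjusted p = 0.438).

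The genes whose profile over the 9 microglia libraries was most like this mean, of 9540 ranked with a mean of at least 5 CPM, were Insig2 (Pearson r = 0.945), Tspan9 (0.918), Rnf114 (0.900), Dnlz (0.899) and Rwdd4a (0.894). Insig2 encodes a regulator of sterol synthesis, Tspan9 a tetraspanin and Rnf114 a ubiquitin ligase. Of the 25 most alike, 8 were on the interferon pathway lists described below, which held 1.12% of the ranked genes. In retina the corresponding genes, of 9778, were Ikbkb (0.926), Slc9a3r2 (0.909), Appl2 (0.900), Reps2 (0.893) and Surf4 (0.891), and 0 of the 25 most alike were on the lists, which held 0.389% of the ranked genes. These correlations are over 9 libraries that share a sort and a library preparation, and are given as a description.

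**Figure D4:**
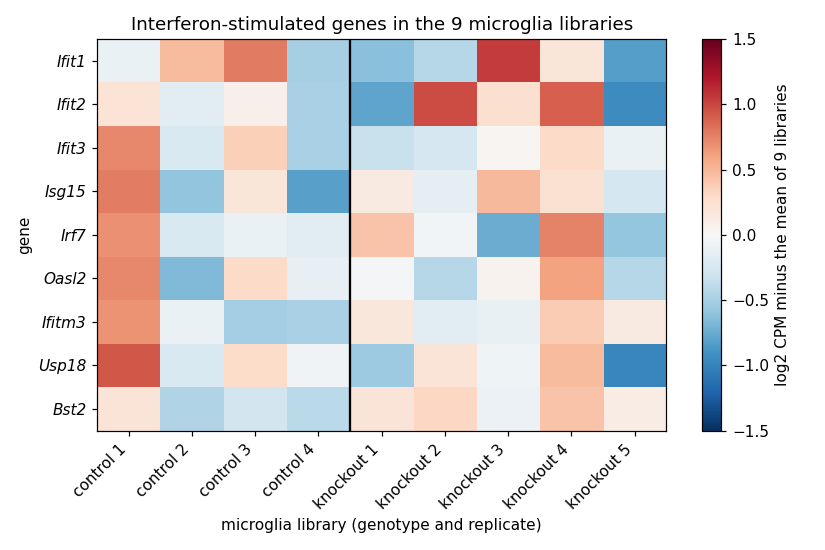
Log2 CPM of each gene (rows) in each microglia library (columns, controls left of the line), minus the gene's mean over the 9 libraries. Warm colours fill most of the columns of control replicate 1 and knockout replicate 4, and cool colours those of control replicates 2 and 4 and knockout replicate 5.

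In retina, which is not itself described as lacking Bmal1, none of the 9 genes was called by edgeR, DESeq2 or limma voom, where edgeR called 1.66% of 15332 genes. At an unadjusted p under 0.05, 1 gene passed, Ifit2, against 14.2% of all genes. Changes were positive for 7 genes, with a median of 0.26 beside 0.00 for all genes, and genotypes did not separate for any of the 9, which 8.71% of all genes did. Ifit2 had 9.91, 8.99, 4.01 and 6.65 CPM in control retina and 0.820, 3.85, 2.98, 2.05 and 4.19 CPM in knockout retina. Only the lowest control and the highest knockout crossed. Its log2 change of -1.45 (SE 0.57, interval -2.73 to -0.17, adjusted p = 0.275) did not pass. None of the 9 was past the threshold in the authors' deposited table for retina, where 744 of its 13330 genes were.

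The remaining retina changes had wide intervals. That of Irf7, the most abundant in retina, was -0.24 (SE 0.27, interval -0.84 to 0.37, adjusted p = 0.808), and that of Ifit3 was 0.24 (SE 0.43, interval -0.73 to 1.20). For Isg15 (1.14, SE 1.09), Ifitm3 (1.12, SE 1.02), Oasl2 (0.26, SE 1.22) and Bst2 (0.22, SE 1.21) the interval ran past a log2 change of 2 upward. Ifit1 had the most positive retina change of the 9, 1.77 (SE 2.02, interval -2.76 to 6.30, adjusted p = 0.808), with the overlapping libraries given above. Its value was 5.78 (adjusted p = 0.277) without control retina replicate 3, which held most of the control reads, and 1.17 to 2.09 without any other library. Usp18 (1.31, SE 2.13) had 1.64, 4.37, 1.45, 5.15 and 0 CPM in knockout retina, which overlapped the controls, and its value was 9.69 (adjusted p = 0.155) without control retina replicate 1. Knockout replicate 4 was the highest knockout for 5 of the 9 genes, among them Ifitm3 with 14.6 CPM against 4.00 to 5.84 CPM in the other 4. In that fraction the summed levels of 7 of 14 cell type marker lists did not overlap between genotypes, 6 higher and 1 lower in knockouts, and in microglia 0 of 14. Rod markers summed to between 150836 and 221152 CPM in controls and between 120964 and 150617 CPM in knockouts, with 5 of 12 called lower. Higher in knockouts were the sums of cones (797 to 1838 CPM in controls and 2708 to 6486 CPM in knockouts), bipolar cells (292 to 783 and 1497 to 2925 CPM), amacrine and ganglion cells (70.6 to 161 and 193 to 327 CPM) and endothelial cells (92.1 to 233 and 254 to 477 CPM). Of the 10 markers on each of these lists, 4, 6, 1 and 1 were called higher, in that order. Changes were negative for 4 amacrine and ganglion cell markers and for 3 endothelial markers, so those sums do not stand for each marker. Sums of the border macrophage list (0 to 5.00 and 15.9 to 22.6 CPM) and of the plasmacytoid dendritic cell list (304 to 383 and 413 to 568 CPM) were also higher in knockouts. Of the 9 border macrophage markers 4 were at 0 in all knockout retina libraries, among them Cd163 and Pf4, and of the 8 plasmacytoid dendritic cell markers 3 were at 0. In that group Siglech of the latter list had a mean of 0.00477 CPM and Bst2, also 1 of the 9 genes, 2.01 CPM. Most of that sum thus came from other genes of the list. Enough reads for a test between genotypes were held by 1 and 4 genes of these lists, with 0 called. The part of these cell types in the levels of the 9 genes was not tested.

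The genotype change in microglia minus that in retina was called for none of the 9 genes by edgeR, DESeq2 or limma voom, where edgeR called 0.469% of 18128 genes. Ifit2, with 1.77 (SE 0.66, interval 0.37 to 3.17, adjusted p = 0.265), was the only gene at an unadjusted p under 0.05, against 12.5% of all genes. When control retina replicate 1, the only control retina library with Usp18 reads, was left out, Usp18 passed with an adjusted p of 0.0492. The remaining control retina libraries were then at 0 for Usp18, so the fitted size is no bound.

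The rest of the pathway was read from lists of its ligands, receptors, signal carriers and targets. The 21 interferon ligand genes had too few reads to be tested, with 43 reads in all control microglia libraries, 49 in knockout microglia, 0 in control retina and 9 in knockout retina. Between genotypes in microglia, 0 genes were called among 5 receptor genes, 6 of JAK-STAT signalling, 13 nucleic acid sensors and adaptors, 6 other IRF factors, 11 negative regulators, 4 of ISG15 conjugation, 64 other interferon-stimulated genes and 14 interferon gamma-induced GTPases and partners. At an unadjusted p under 0.05 these lists held 1, 0, 1, 0, 1, 0, 7 and 1 genes in that order, to be read against the 5.76% of all genes. The median log2 change of the 64 other interferon-stimulated genes was 0.11, with 37 positive and 27 negative.

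By role, the receptor chains Ifnar1 and Ifnar2 had log2 changes of -0.27 (SE 0.20) and -0.10 (SE 0.11) in microglia, and Il10rb, which serves type III interferon and interleukin-10 receptors, had 0.37 (SE 0.12, adjusted p = 0.585). Irf9, the DNA-binding partner in the interferon-activated complex, had -0.26 (SE 0.27). Among sensors, the RNA sensor Tlr3 had -0.29 (SE 0.19) and the adaptor Tmem173 (STING) -0.18 (SE 0.10). Tlr9, a DNA sensor, had 1.10 to 11.8 CPM in controls and 0.075 to 1.13 CPM in knockouts, a log2 change of -3.47 (SE 0.92, adjusted p = 0.375) that did not pass. The ISG15 ligase pathway genes Uba7, Trim25 and Herc6 had -0.46 (SE 0.27), -0.51 (SE 0.28) and -0.55 (SE 0.54), while Ube2l6, which encodes the ISG15-conjugating enzyme, had 0.19 (SE 0.20), and none of the 4 passed. Of the remaining lists, the smallest p belonged to Ly6e, a membrane protein gene with a log2 change of 0.35 (SE 0.11, adjusted p = 0.496) from a control level of 2080.3 ± 197.8 CPM, to Gbp3, a guanylate-binding GTPase gene (0.78, SE 0.33, adjusted p = 0.836), to Rnaseh2b, a subunit of RNase H2 (1.09, SE 0.42, adjusted p = 0.765), and to Irf2 (-0.30, SE 0.14, adjusted p = 0.863).

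Between the fractions most of these genes were, like the 9, called higher in microglia, but many entered the test through their microglia reads. Between the retina groups only 6 sensors and adaptors, 3 other IRF factors and 25 other interferon-stimulated genes held enough reads for a test. For genes beyond these, a higher level in microglia was largely set in advance by the filter on low counts. In controls, microglia were called higher for 5 of 5 receptor genes, 4 of 6 JAK-STAT genes, 11 of 13 sensors and adaptors, 5 of 6 other IRF factors, 3 of 4 ISG15 conjugation genes, 45 of 58 other interferon-stimulated genes and 3 of 12 GTPases and partners, where 22.8% of all genes were higher. Retina was called higher for 2 of the 58 other interferon-stimulated genes and for 1 of 11 negative regulators, the phosphatase gene Ptpn2, against 17.4% of all genes, while 3 of those 11 were higher in microglia. Tlr7, the endosomal sensor of single-stranded RNA, had 138 ± 26.3 CPM in control microglia and 0 reads in both retina groups, and Irf8, a myeloid lineage factor, had 1263 ± 134 CPM and 0.649 ± 1.15 CPM in control microglia and retina. The kinase gene Jak1 had 462 ± 66.9 and 173 ± 23.0 CPM in control microglia and retina, a log2 difference of 1.38 (SE 0.16, adjusted p = 0.000295).

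In retina between genotypes, 1 of the 68 listed genes tested was called (1.47%), near the 1.66% of all genes. It was Trim12c, a member of the Trim5-like family of antiviral ligases. It had 0 reads in all control retina libraries and 1.27 to 3.20 CPM in the 5 knockout retina libraries, with 425 reads in all. With the control group set to 3 counts, the ratio of knockout to control retina was 122, a limit for counting error only (edgeR adjusted p = 0.0135). With 0 control reads, the gene entered the test through knockout retina alone. Trim12c belongs to a family of close copies, so the assignment of its reads is uncertain, and the call was lost when the number of detected genes entered the fit (adjusted p = 0.249), a number that ran from 16510 to 18715 in control and from 18761 to 19713 in knockout retina. The difference between the fractions' genotype changes was called for 2 of 125 listed genes (1.6%), beside 0.469% of all genes. They were Trim12c (adjusted p = 0.000137) and Tlr3 (adjusted p = 0.0325), for each of which the genotype change, not the level, was lower in microglia than in retina. Tlr3 had 1 read in control retina and 459 in knockout retina, where libraries ran from 0 to 6.44 CPM. Its call rested on single libraries, being lost without any of control microglia replicates 2, 3 or 4, any control retina library, or knockout microglia replicate 4 or 5 (adjusted p up to 0.0785), and by limma voom (adjusted p = 0.130).

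**Figure D5:**
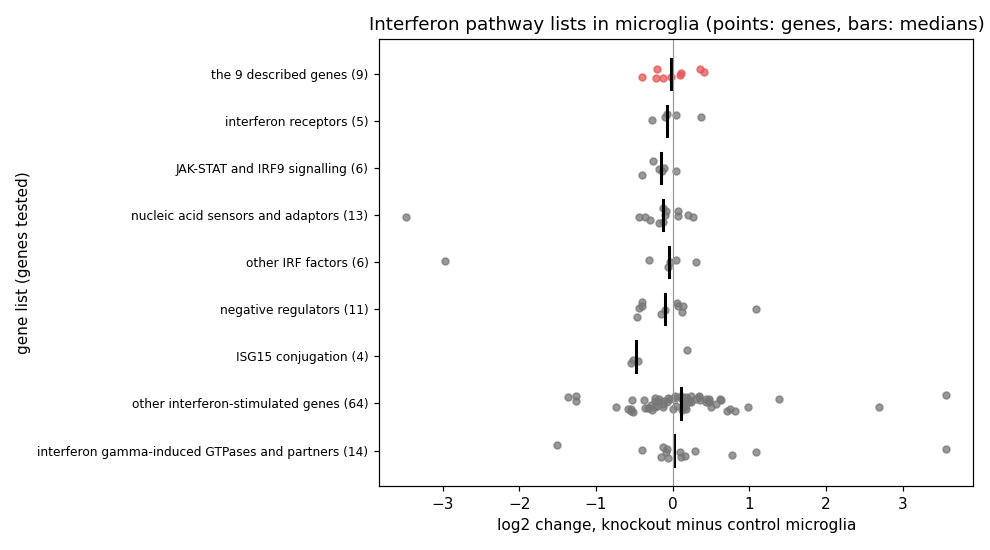
Log2 change, knockout minus control microglia, of each tested gene (points) of the 9 described genes and of 8 interferon pathway lists, with the median of each as a bar and the number of genes tested in parentheses. No point passed at an adjusted p under 0.05, and the medians of the 9 genes and of the 64 other interferon-stimulated genes lie at -0.03 and 0.11.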

How the data were processed

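RNA of flow-sorted retinal cells was amplified with a SMARTer Ultra Low kit and sequenced as paired reads, per the labels' protocols. The authors deposited whole-number counts per gene for 18 libraries. DRAGEN, STAR 2.7.9a, Subread, featureCounts and GRCm38 are named, without a role, in the submitters' processing notes. The authors' deposited tables of each genotype comparison hold a log2 fold change, a log2 mean CPM, a score (likelihood ratio) and p-values, per the file headers.

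Of 55774 lines, 287 repeated an identifier with the same counts and were removed. Positions and exon lengths came from GENCODE M21. Counts were tested with edgeR 4.0.16 (R 4.3.3; filterByExpr, TMM, quasi-likelihood F test, Benjamini-Hochberg adjusted p under 0.05) within the groups compared, the difference of genotype changes over all 18. DESeq2 1.42.0 and limma 3.58.1 (voom) were alternatives. Scripts were tested on simulated counts. A standard error is the absolute log2 change over the square root of F. A gene never read in a group was set to 3 counts.

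The genes, lists and named-gene rule were chosen with earlier results of these data known. The rule takes the 9 genes, list genes past the threshold (up to 4 a comparison) or with the 3 smallest p, and the 5 most similar profiles. Csf1r, Gpr34, Fcrls, Sparc, Xist, Phrf1, Ifit3b, Esr1, Cx3cr1 and the selection of list genes described were named after their values were seen. Fits on the 14 libraries with Y-linked reads were also chosen after seeing the data. Not every gene named by this rule is reported here.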

Additional observations from a re-analysis of the deposited data

Results flagged for a closer look

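Of 36 gene and group combinations, 5 held a library far from the others of its group by Dixon's gap test at the 95% level, where chance gives about 1 in 20. Control retina replicate 3 had 4.64 CPM of Ifit1 against 0 to 0.211 CPM in the other 3. Control retina replicate 1 had 0.0 CPM of Isg15 against 1.09 to 1.10 CPM, and 3.87 CPM of Usp18 against 0 in the other 3. Control microglia replicate 1 had 117 CPM of Irf7 against 62.4 to 67.9 CPM. Knockout retina replicate 4 had 14.6 CPM of Ifitm3 against 4.00 to 5.84 CPM.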

How the results depend on the processing

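No alternative gave a call among the 9 genes between genotypes in microglia or in retina. For the difference of genotype changes the count ran from 0 to 1 over fits that left out 1 library, the 1 being Usp18 without control retina replicate 1. The count of the 9 genes higher in control microglia than control retina was 7 as reported, beside 3458 of all 15188 genes tested. It was 5 with no filter (3129 of 28725), 8 by DESeq2 (3944 of 15188) and 9 by limma voom (4234 of 15188). In a fit over all 18 libraries it was 9 (4110 of 18128), and without 1 library 5 to 7 (3028 to 3482 over all genes). In knockouts it was 8 as reported (3604 of 15211) and 7 to 9 under the alternatives (3181 to 4260 over all genes).

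Directions of uncalled changes were unstable. With the number of detected genes as covariate, log2 changes in microglia became -0.21 for Ifit2, -0.055 for Isg15 and 0.23 for Irf7, and in retina -0.40 for Ifit3, -1.37 for Oasl2 and -3.18 for Usp18. From the libraries with Y-linked reads, those in microglia became 0.085 for Ifit3, 0.13 for Irf7 and 0.13 for Oasl2. By limma voom the difference of genotype changes of Bst2 became -1.26. Leaving out 1 library, log2 changes in microglia ran from -0.61 to 0.034 for Ifit1, -0.38 to 0.023 for Ifit3, -0.11 to 0.46 for Isg15, -0.27 to 0.24 for Irf7, -0.34 to 0.13 for Oasl2 and -0.018 to 0.45 for Ifitm3. In retina they ran from -0.0079 to 0.42 for Ifit3, -0.15 to 1.85 for Oasl2 and -0.18 to 1.01 for Bst2, and for the difference of genotype changes from -0.063 to 0.46 for Irf7 and -0.64 to 0.57 for Bst2. The cause was not tested.

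The labels number the libraries but do not say that a number marks 1 mouse. Deviations of same-numbered libraries from their group means correlated at -0.059 to 0.048, and 5 of 17 such pairs were the closest match. On the other side, replicate 1 was the only library without Y-linked reads in each group, and both fractions were isolated at the same time. Whether numbers mark mice was therefore not settled. Control and knockout libraries with the same number cannot be 1 mouse, so between genotypes the block follows only the number. With the replicate number as a block, 0, 0 and 0 of the 9 genes were called between genotypes in microglia, in retina and for their difference, and 6 and 8 between fractions in controls and knockouts (Isg15 was lost in controls, adjusted p = 0.087). The blocked log2 change of Irf7 in microglia was 0.045 and the blocked difference for Bst2 was -0.31. Trim12c (adjusted p = 0.253 in retina) and Tlr3 (adjusted p = 0.465) did not pass with the block. Over all genes the calls moved from 17 to 2 in microglia, from 255 to 0 in retina and from 85 to 9 for their difference. Genes called higher in microglia than in retina with the block were 2509 of 15188 in controls and 3181 of 15211 in knockouts.

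Counts of calls over all genes between genotypes also depended on the tool, with 237 by DESeq2 and 26 by limma voom in microglia and 1184 and 363 in retina, and were 4 and 116 from the libraries with Y-linked reads.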
